A study of Mus musculus with 8 samples.

Results

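Transplanted tumours of the mouse colorectal carcinoma line CT26 were compared after treatment with mLJZD, an abbreviation the labels leave unexpanded, or with normal saline. The comparison rests on 4 of the 8 libraries in the series: 2 from saline-treated tumours (saline 1 and saline 2) and 2 from tumours treated with mLJZD (mLJZD 1 and mLJZD 2), taken by their names in the count table and read across all genes. The labels give the saline group the name tumor_WT and state no genetic change in either group. Both groups are transplants of the same line, and the mouse strain, sex and age, the dose, the route and the time of sampling are missing from the labels. The design text says only that the transcriptome was examined to find what accounts for the effects of mLJZD, and the title of the series names nobiletin, the kinase gene Chek1, the histone mark H3K27ac and the centromere gene Cenpm. The 2 control cultures of CT26, kept for 48 hours in medium with 10% serum, are used below only to say which genes the cell line expresses outside a mouse.

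A transplanted tumour is a mixture. The cancer cells make up part of it, and vessels, fibroblasts, immune cells, blood and whatever tissue the tumour has grown into or was cut out with make up the rest. RNA from the whole piece therefore reports the state of the cells and the mixture together, and fewer cells of a type cannot be told apart from less RNA per cell. Dividing cells express the DNA replication genes in S phase and the mitotic and centromere genes later in the cycle. Cells short of oxygen stabilise HIF transcription factors, which raise glucose uptake, glycolysis and angiogenic factors. Cells short of amino acids or with misfolded protein raise the transcription factor ATF4 and its targets.

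Library totals ran from 16594912 to 19793632 counts, and levels are given as CPM, the usual scaling of counts by the library total. Of 56953 gene identifiers 15417 passed the filter on low counts and were tested, and 4835 (31.4% of those tested) passed edgeR's quasi-likelihood test at a Benjamini-Hochberg adjusted p under 0.05. Higher under mLJZD were 2371 (15.4%) and lower were 2464 (16.0%). Most changes were small: the median size among the genes called was 0.37 on the log2 scale, 3472 calls were under 1.5-fold, and 772 reached 2-fold, of which 351 were higher and 421 lower. Without mLJZD 1 the number of calls was 1087, and without mLJZD 2 it was 1974, so counts of calls below are set beside those of these reduced fits where they differ by more than 1.5 times. In each of them the lone mLJZD library is assumed to vary as the saline libraries do.

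How far the libraries of a group stand for separate tumours is not stated in the labels. The mean chi-square per gene between 2 libraries, which is near 1 where they differ by counting error alone, was 2.69 between the saline libraries, 4.15 between the mLJZD libraries and 25.2 to 29.6 between a saline and an mLJZD library. The libraries of a group thus differed by more than counting error over all genes and were kept as 2. For the skeletal muscle genes described below the value was 0.892 within saline and 1.34 within mLJZD, against 1540 to 1684 between groups. For immunoglobulin V segments it was 2.02 within saline, 1.51 within mLJZD and 60.7 to 63.5 between the groups. Each pair kept only genes with at least 20 counts over its 2 libraries. For V segments these were 16 within saline, 90 within mLJZD and 66 to 74 between groups. The V segment values thus rest on unlike sets, chosen in part by the high mLJZD counts, and cannot be compared. Skeletal muscle genes were therefore about as alike within a group as 2 counts of a single RNA pool would be, and the p-values measure only how far these libraries lie apart, a spread that may be technical.

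**Figure D1:**
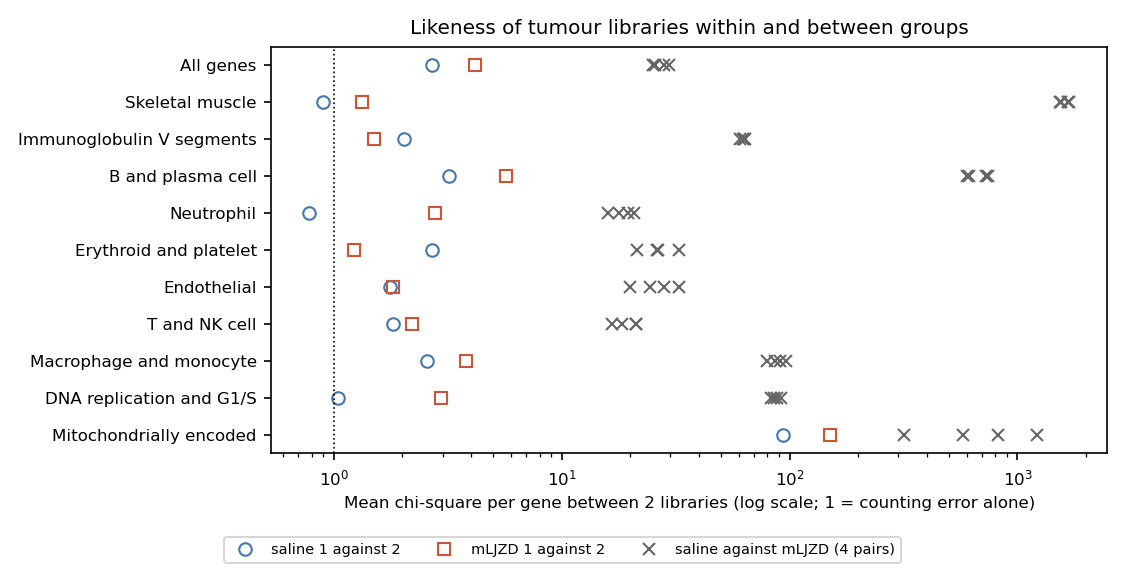
Mean chi-square per gene (log scale) between pairs of tumour libraries, over all genes and over the genes of 10 lists. Each pair keeps only genes with at least 20 counts over its 2 libraries, so the V segment pairs use unlike sets. Circles and squares are the pairs within saline and within mLJZD, crosses the 4 pairs of a saline with an mLJZD library, and the dotted line is counting error alone. Within-group pairs stood near the line for skeletal muscle (0.892 and 1.34), while the mitochondrially encoded genes differed within the groups as well (93.6 and 150).

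The label calls the material colorectal cancer cells, and most markers of colon epithelium were absent. Of 15 such markers only 2 had enough counts to be tested, and 6 had no count in any tumour library. Cdx2, the intestinal identity factor, had no count in any tumour and 0.451 to 0.470 CPM in the control cultures, and the surface marker Epcam stood at 0.355 to 0.873 CPM in the tumours. Krt20, a keratin of colon surface cells, was well expressed at 276 and 271 CPM in the saline libraries and 175 and 176 CPM in the mLJZD libraries. It fell by 0.61 (log2, SE 0.05, edgeR adjusted p = 7.91e-08). The other one tested, the intestinal cadherin Cdh17, rose from 1.17 and 1.01 to 2.78 and 3.19 CPM (log2 1.48, SE 0.31, adjusted p = 0.00132), a call lost without mLJZD 1 (0.0628) and mLJZD 2 (0.0557).

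**Figure D2:**
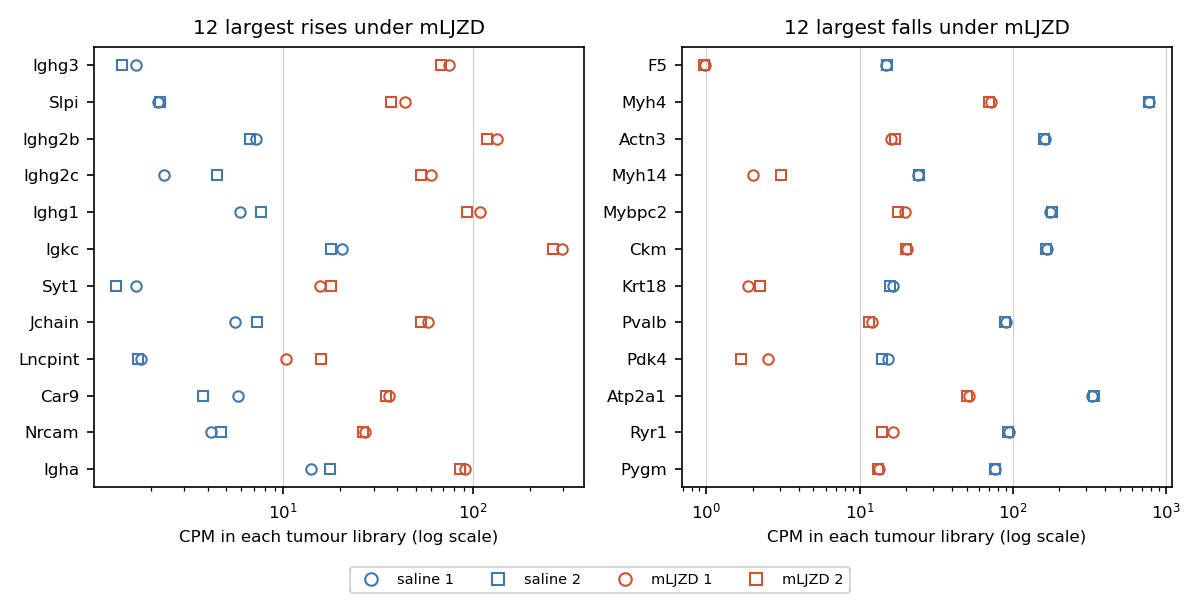
CPM (log scale) of the 12 genes with the largest log2 rises and the 12 with the largest falls, among genes called without overlap between groups and with at least 10 CPM in the higher group and leaving out immunoglobulin V segments. Each symbol is 1 tumour library; immunoglobulin constant genes are the most frequent among the rises, led by Ighg3 from 1.68 and 1.41 to 75.2 and 67.9 CPM, and skeletal muscle genes most of the falls.

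Skeletal muscle genes made up most of the deepest falls. Of 24 tested, 21 were lower under mLJZD and 2 higher, with a median log2 fold change of -2.19 against 0 over all genes tested, and the same number, 21, were lower without any single library. Together the 25 genes of the list held 3687 and 3715 CPM in the saline libraries and 682 and 673 CPM in the mLJZD libraries, while the control cultures held 4.82 and 4.19 CPM. CT26 cells in culture thus barely expressed them.

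The deepest falls of the list were those of genes of fast-twitch fibres, but the fast myosin Myh1 fell less and Myh2 rose. Myh4, the myosin heavy chain of the fastest fibres, stood at 771 and 781 CPM under saline and 72.1 and 70.0 CPM under mLJZD, a log2 change of -3.42 (SE 0.05, edgeR adjusted p = 7.78e-18). The groups lay far apart and the libraries within each were almost equal. Actn3, the alpha-actinin of fast fibres, changed by -3.26 (163 and 159 to 15.9 and 16.9 CPM), and Mybpc2, the fast myosin-binding protein, by -3.22 (177 and 181 to 19.6 and 17.7 CPM). Ckm, the muscle creatine kinase, changed by -3.02, the calcium pump Atp2a1 by -2.67 and the skeletal actin Acta1 by -2.16 (808 and 817 to 178 and 176 CPM). Of the members that rose, Myh2, the myosin of fast oxidative fibres, went from 10.1 and 9.09 to 19.2 and 22.3 CPM (2.21-fold, edgeR adjusted p = 1.66e-06). The other, the slow-fibre troponin T Tnnt1, went from 1.27 and 1.26 to 2.95 and 2.41 CPM (log2 1.11, SE 0.31, adjusted p = 0.0103). Tnnt1 lost its call without mLJZD 1 (edgeR adjusted p = 0.118), mLJZD 2 (0.0559), saline 1 (0.0516) and saline 2 (0.0621), and also with DESeq2 (0.0658). Myoglobin (Mb) did not pass (log2 -0.33, SE 0.18, adjusted p = 0.188).

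Muscle regulators and some metabolic genes stood beside them. Pdk4, a kinase that turns off pyruvate oxidation, fell from 15.3 and 14.0 to 2.51 and 1.69 CPM (log2 -2.76, SE 0.19, edgeR adjusted p = 4.91e-09), and Pfkm, the muscle isoform of phosphofructokinase, fell by 1.10 while other glycolysis genes rose. Chosen after their values were seen, Myf6, a muscle transcription factor, changed by -2.64, the muscle filament gene Des by -1.76, and H19, an imprinted noncoding RNA, by -1.99. H19 went from 135 and 137 to 34.5 and 32.5 CPM and had no count in either control culture. Pfkm and Des were expressed in those cultures, at 70.1 and 74.5 CPM and at 12.25 and 8.74 CPM. The part that muscle tissue in the tumour pieces had in these values was not tested.

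**Figure D3:**
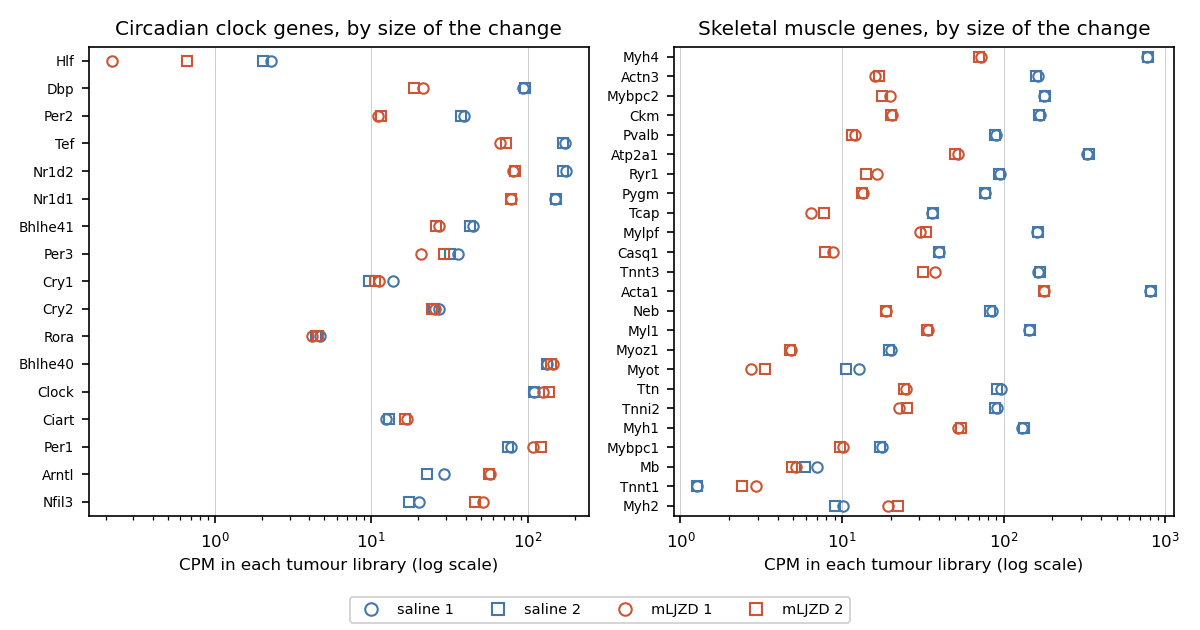
CPM (log scale) of 17 of the 18 tested circadian clock genes and the 24 tested skeletal muscle genes in each tumour library, ordered by their log2 change from the largest fall at the top to the largest rise at the bottom. All 24 muscle genes, among them Myh4 (10.7-fold lower) and Myh1 (2.41-fold lower), show no overlap between groups, as do 9941 of the 15417 genes tested. The clock genes split between a group that fell (Dbp, Per2, Tef) and a group that rose (Nfil3, Arntl).

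Antibody genes showed the largest rises among genes reaching 10 CPM. Of 21 B and plasma cell genes tested, 13 were higher and none lower, 8 and 10 of them higher without mLJZD 1 and without mLJZD 2. The kappa constant gene Igkc stood at 20.4 and 17.8 CPM under saline and 295 and 265 CPM under mLJZD (log2 3.91, SE 0.08, edgeR adjusted p = 2.95e-16). Each switched heavy-chain class was higher: Ighg3 by 5.56, Ighg2b by 4.22, Ighg2c by 4.10, Ighg1 by 3.95 and Igha by 2.51 on the log2 scale. Ighm, the class made before switching, did not pass and was nearly equal in all 4 libraries, at 20.1 and 22.4 CPM under saline and 20.6 and 20.1 CPM under mLJZD (log2 -0.03, SE 0.10, adjusted p = 0.855).

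Other genes of the lineage split. Jchain, which joins antibody units, rose from 5.54 and 7.22 to 58.0 and 53.4 CPM, and Pax5, the transcription factor that defines B cells, from 0.355 and 0.505 to 4.47 and 4.82 CPM (log2 3.44, SE 0.34, edgeR adjusted p = 6.18e-07). Pax5 is 1 of 5 among the 13 higher genes, with Iglc1, Iglc2, Mzb1 and Pou2af1, that reached the level of the low-count filter in both libraries only under mLJZD. The plasma cell genes Xbp1, Irf4 and Sdc1 did not pass (log2 0.12, -0.30 and -0.04), and Xbp1 and Sdc1 are also expressed by CT26 in culture (73.0 and 44.1 CPM in control culture 1). Among 78 immunoglobulin V segments tested, 71 were higher and none lower (27 higher without mLJZD 1 and 43 without mLJZD 2), and their sum went from 24.0 and 23.5 CPM to 278 and 271 CPM. Of the 78, 67 reached the level of the filter in both libraries only under mLJZD, 7 of them with no count under saline, so the share called is no support for a difference. V segments and IgG genes are similar enough that reads may be split between them.

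Granule genes of neutrophils and their precursors were measured at low levels. The neutrophil marker Ly6g was not tested, with no count under saline and 0.109 and 0.121 CPM under mLJZD. Stfa1, Stfa2 and Stfa3 had no count in any tumour library. Camp, also not tested, stood at 0.102 and 0 CPM under saline and 0.382 and 1.51 CPM under mLJZD. Of 22 list members, 15 were tested, and 10 of these were higher and 1, the gelatinase gene Mmp9, lower, but only 1 was higher without mLJZD 1 and 5 without mLJZD 2. Mpo, the myeloperoxidase of primary granules, had no count in either saline library and 37 and 24 counts under mLJZD, at least 23-fold higher against a floor of 3 counts over the saline group. Elane, neutrophil elastase, likewise had none under saline and 17 and 16 counts under mLJZD, at least 12.4-fold higher. Of the 10 higher genes 6 (Mpo, Elane, Ngp, Prtn3, Ltf and Cxcr2) reached the level of the low-count filter in both libraries only under mLJZD, so the count is no support for a difference of the list. Mpo and Elane lost their call without mLJZD 1 (edgeR adjusted p = 0.0673 and 0.0764), as Elane also did without mLJZD 2 (0.0642). Ngp, a granule protein of maturing neutrophils, went from 0.0508 and 0.101 to 2.73 and 2.29 CPM and was called in all of these fits. Among those that passed by both groups, S100a9, a calprotectin subunit, went from 4.11 and 3.33 to 10.8 and 9.34 CPM and lost its call without mLJZD 1 (0.0535). Mmp9 lost its call without mLJZD 1 (0.0611) and mLJZD 2 (0.0847). Floors cover counting error only.

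Haemoglobin and platelet genes rose by a smaller factor. All 9 tested members of the erythroid and platelet list were called, 8 higher (1 of them, Hba-a2, reaching the filter's level in both libraries only under mLJZD) and 1, the erythropoietin receptor Epor, lower, yet 1 was higher without mLJZD 1 and 1 without mLJZD 2. Hbb-bs, an adult beta-globin, held its call in every fit, at 10.3 and 9.95 CPM under saline and 21.2 and 21.8 CPM under mLJZD (log2 1.12, SE 0.11, edgeR adjusted p = 8.45e-07). Globin copies are near-identical, so reads may move between them. Epor lost its call without mLJZD 1 (0.224), mLJZD 2 (0.157) and saline 1 (0.361), and with DESeq2 (0.126).

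The 2 classes of antigen presentation moved in opposite directions. The list of dendritic cell and MHC class II genes, used by professional antigen-presenting cells, had 8 of 18 list members higher and none lower, 4 without mLJZD 1 and 5 each without mLJZD 2 and with DESeq2. H2-Aa rose from 145 and 140 to 211 and 199 CPM (log2 0.56, SE 0.06, edgeR adjusted p = 8.14e-07), and H2-Ab1 and H2-Eb1 rose by 0.51 and 0.55. Neither H2-Aa nor H2-Ab1 had a count in the control cultures. MHC class I and immunoproteasome genes, used by most cell types to display internal peptides, had 11 of 18 lower and none higher, 7 without mLJZD 1 and 5 without mLJZD 2. H2-D1 fell from 2712 and 2704 to 2273 and 2280 CPM (log2 -0.22, SE 0.02, adjusted p = 1.58e-06), and H2-K1 fell by 0.24. These falls were small, and class I copies are similar in sequence. The list also differed within groups more than all genes did. Its mean chi-square per gene was 7.00 within saline and 18.1 within mLJZD, against 94.15 to 133.5 between groups.

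Macrophage genes did not move as a block. Of 23 tested, 8 were higher and 7 lower (2 and 4 without mLJZD 1, 5 and 4 without mLJZD 2). The shares called with all 4 libraries, 34.8% higher and 30.4% lower, stood against 15.4% and 16.0% over all genes tested. The pan-macrophage gene Adgre1 and the complement gene C1qa did not pass (log2 -0.05 for both, edgeR adjusted p = 0.445 and 0.489). The largest fall was that of the scavenger receptor Cd163, at 9.04 and 9.60 CPM under saline and 2.73 and 2.47 CPM under mLJZD (log2 -1.80, SE 0.18, edgeR adjusted p = 9.34e-07), and the mannose receptor Mrc1 was lower at 296 and 300 against 186 and 183 CPM. Arg1, arginase, was higher at 86 and 84 against 149 and 146 CPM (log2 0.83, SE 0.05, adjusted p = 2.04e-09). Nos2, inducible nitric oxide synthase, was higher by 0.98 but lost its call without mLJZD 1 (0.0836) and mLJZD 2 (0.0510).

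Among T and NK cell genes 6 of 27 were higher and 5 lower, against none and 3 without mLJZD 1 and 5 and 2 without mLJZD 2. With all 4 libraries the shares called, 22.2% higher and 18.5% lower, were near the 15.4% and 16.0% over all genes tested. The T-cell receptor component Cd3e did not pass (log2 -0.18, SE 0.15, edgeR adjusted p = 0.405). The checkpoint receptor Tigit fell from 17.7 and 18.5 to 8.40 and 8.01 CPM (log2 -1.11, SE 0.12, adjusted p = 2.75e-06), though CT26 in culture expressed it at 36.0 and 42.4 CPM. Cd8a, the cytotoxic co-receptor, fell from 21.4 and 22.0 to 16.2 and 12.7 CPM and lost its call without mLJZD 2 (0.0849). Gzma, granzyme A, fell by 0.65. The largest changes of the list were rises from low levels: Gzmk, granzyme K, went from 1.52 and 1.57 to 5.73 and 3.62 CPM (log2 1.63, SE 0.28, adjusted p = 0.000256) and Ctla4, a checkpoint receptor, from 2.03 and 2.43 to 6.66 and 5.24 CPM (log2 1.45, SE 0.23). Both lost their call without mLJZD 1 (0.0693 and 0.0677). Gzmb and Prf1, the granzyme B and perforin of killer cells, rose by 0.51 and 0.38.

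DNA replication genes fell together by a modest amount. Of 40 tested, 32 were lower and 1 higher, with a median log2 change of -0.33, and 17 were lower without mLJZD 1 and 21 without mLJZD 2. Mcm6, a subunit of the replicative helicase, stood at 279 and 282 CPM under saline and 170.5 and 169 CPM under mLJZD (log2 -0.69, SE 0.05, edgeR adjusted p = 1.75e-08). Mcm3 fell by 0.68, Mcm2 by 0.56 and Mcm5 by 0.43, while E2f1, the transcription factor of the G1/S step, did not pass (log2 0.06). The 1 member that was higher was another E2F gene, E2f2 (log2 0.33, adjusted p = 0.0222), whose call was lost without mLJZD 1 (0.0707), mLJZD 2 (0.165) and saline 1 (0.0844) and with DESeq2 (0.0909).

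Mitotic and centromere genes fell too. In the list of G2 and mitosis 24 of 30 were lower and 1, Cdca8, higher, with 9 lower without mLJZD 1 and 12 without mLJZD 2. Cdca8 lost its call without mLJZD 1 (edgeR adjusted p = 0.151). Mki67, the Ki-67 proliferation antigen, fell from 584 and 563 to 417 and 445 CPM (log2 -0.38, SE 0.04, edgeR adjusted p = 3.44e-06), and Top2a, the topoisomerase of dividing cells, by 0.37. Cdk1 and Aurka did not pass (log2 -0.13 and 0.01). In the centromere and kinetochore list 16 of 32 were lower and none higher, with 6 without mLJZD 1 and 7 without mLJZD 2.

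Cenpm, a constitutive centromere protein named in the series title, had the largest fall of that list. Its level was 32.3 and 33.1 CPM under saline and 19.4 and 17.4 CPM under mLJZD (log2 -0.79, SE 0.09, edgeR adjusted p = 5.11e-06), and the call held without each library in turn. Hjurp and Cenpf, which load and decorate centromeres, fell by 0.65 and 0.64, whereas Ndc80, Cenpn and Cenpi did not pass (log2 -0.08, -0.01 and 0.04). Chek1, the checkpoint kinase of the title, stood at 23.8 and 23.1 CPM under saline and 16.6 and 19.2 CPM under mLJZD (log2 -0.36, SE 0.10, adjusted p = 0.0125). Its call was lost without mLJZD 1 (adjusted p = 0.135), mLJZD 2 (0.0612) and saline 1 (0.0542) and with DESeq2 (0.0644).

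Promoter sequence bears on the replication genes because many are E2F targets. E2F was searched on both strands as TTTCCCGC, TTTGGCGC, TTTCGCGC or TTTGCCGC in the 250 bases before the start of each gene, using RefSeq promoters of the build GRCm38.p6, which matched 10770 of the genes tested. A match was held by 5.23% of the promoters of genes called lower, 2.55% of those called higher and 3.3% of all tested, and by 8 of 33 replication genes (24.2%). Mcm6, the replication gene with the largest fall, is shown at chr1:128359706-128359955 on the minus strand, 5' to 3', with the matches in capitals.

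Mcm6: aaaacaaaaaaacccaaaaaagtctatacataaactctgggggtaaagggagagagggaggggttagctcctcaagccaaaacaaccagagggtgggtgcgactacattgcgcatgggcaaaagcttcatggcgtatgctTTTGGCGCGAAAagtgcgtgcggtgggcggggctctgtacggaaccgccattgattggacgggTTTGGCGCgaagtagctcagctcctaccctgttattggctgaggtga

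Its matches include 2 that overlap, so the longer run of capitals is a joined pair. A match is a description of these letters and no sign that a factor binds there.

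Glycolysis and oxygen-response genes rose. Of 23 glycolysis identifiers tested (Aldoa has 2) 18 were higher and 2 lower, and of 26 hypoxia targets outside glycolysis 20 were higher and 1 lower (12 without mLJZD 1). Slc2a1, the glucose transporter GLUT1, went from 128 and 131 to 319 and 308 CPM (log2 1.31, SE 0.05, edgeR adjusted p = 6.46e-12). The enzymes Pgk1, Eno1 and Ldha rose by 0.87, 0.75 and 0.58, and by CPM they were among the largest gains of all genes, Ldha going from 1508 and 1539 to 2261 and 2204 CPM. Pdk1, which diverts pyruvate from mitochondria, rose by 0.86. The 2 glycolysis genes that fell, Pfkm and Aldoc, are forms typical of muscle and brain. CT26 in culture also expressed Pfkm, at 70.1 and 74.5 CPM, against 50.0 and 45.6 CPM in the mLJZD tumours. Aldoc lost its call without saline 2 (edgeR adjusted p = 0.265), mLJZD 1 (0.201) and mLJZD 2 (0.211) and with DESeq2 (0.111).

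Car9, a carbonic anhydrase that exports acid and a classical HIF target, had the largest rise of these. It went from 5.79 and 3.79 to 36.0 and 35.0 CPM (log2 2.92, SE 0.14, edgeR adjusted p = 6.51e-11), against 23.6 and 25.3 CPM in the control cultures. Bnip3, a mitophagy receptor, rose from 71.5 and 70.8 to 155 and 151 CPM, Egln3, a HIF prolyl hydroxylase, by 1.22 (log2), and Vegfa, the main angiogenic growth factor, by 0.75 (110 and 99.0 to 163 and 180 CPM). Angptl4, a lipase inhibitor, was the only hypoxia target lower (log2 -0.69). The secreted carbonic anhydrase Car6, chosen after its values were seen, rose by 2.40.

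The hypoxia response core, ACGTG or GCGTG on either strand, was held by 14 of 18 hypoxia targets with a promoter entry (77.8%), against 54.9% of all promoters tested, 56.5% of those of genes called higher and 53.7% of those called lower. So short a motif occurs in most promoters of this length. The promoter of Car9 at chr4:43506776-43507025 on the plus strand shows a single match, on the opposite strand, close to the start of the gene.

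Car9: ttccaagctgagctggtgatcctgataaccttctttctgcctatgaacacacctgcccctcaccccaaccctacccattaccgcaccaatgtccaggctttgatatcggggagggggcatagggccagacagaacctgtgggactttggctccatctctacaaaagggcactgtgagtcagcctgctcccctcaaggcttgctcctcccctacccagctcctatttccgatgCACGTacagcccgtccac

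ATF4 targets rose as well. Of 23 tested, 16 were higher and 1 lower (9 and none without mLJZD 1), the lower being Shmt2 (log2 -0.14), which lost its call without each library in turn (edgeR adjusted p from 0.117 without saline 2 to 0.349 without saline 1). Chac1, which degrades glutathione, went from 14.8 and 15.6 to 48.1 and 50.0 CPM (log2 1.72, SE 0.08, edgeR adjusted p = 5.54e-11). Trib3, a pseudokinase that feeds back on ATF4, rose by 1.24, Ddit3, which encodes CHOP, by 1.08 and Sesn2, a brake on mTORC1, by 1.07. Atf4 itself rose by 0.32 and Asns, asparagine synthetase, by 0.34, and both lost their call without mLJZD 1 (0.0635 and 0.0861). In control cultures Chac1, Trib3 and Ddit3 stood higher than in any tumour, Trib3 at 388 and 393 CPM against 68.7 and 68.1 CPM under mLJZD. The ER chaperones were less moved, with 9 of 21 higher and none lower (2 without mLJZD 1 and 4 without mLJZD 2), Hspa5 by 0.28.

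The composite ATF4 motif TGATGNAA was held on either strand by 2.61% of promoters of genes called higher, 1.93% of those called lower and 2.04% of all tested. In the list itself 6 of 20 promoters held it (30.0%). The list was gathered as ATF4 targets, so its share does not bear on mLJZD. Chac1 is shown at chr2:119350992-119351241 on the plus strand, with its match, on the opposite strand, in capitals.

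Chac1: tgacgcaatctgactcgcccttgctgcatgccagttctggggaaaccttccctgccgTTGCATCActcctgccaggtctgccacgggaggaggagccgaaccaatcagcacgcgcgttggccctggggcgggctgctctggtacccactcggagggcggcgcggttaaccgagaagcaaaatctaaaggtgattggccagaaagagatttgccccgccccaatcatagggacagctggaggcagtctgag

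Immediate early genes, which respond within minutes to growth factors and stress, had the highest share of members called higher among lists with 10 or more tested. Of 30 tested, 28 were higher and 1, the phosphatase Dusp4, lower (20 and 21 higher without mLJZD 1 and mLJZD 2). Dusp4 lost its call without mLJZD 1 (0.0601). Egr1, a zinc-finger transcription factor, stood at 260 and 262 CPM under saline and 687 and 691 CPM under mLJZD (log2 1.43, SE 0.04, edgeR adjusted p = 5.71e-14). Dusp1, a MAP kinase phosphatase, rose by 1.22, the AP-1 subunits Fosb, Fos and Jun by 1.02, 0.75 and 0.66, and the mRNA decay factor Zfp36 by 0.83. Nr4a1 did not pass (log2 0.06). The AP-1 motif TGACTCA was held by 4.33% of promoters of genes called higher, 3.08% of those called lower and 3.33% of all tested, and the CRE motif TGACGTCA by 3.44%, 2.2% and 2.7%.

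Heat shock genes split, with 42.1% higher and 26.3% lower, against 15.4% and 16.0% over all genes tested. Hspa1a and Hspa1b, 2 near-identical genes for inducible HSP70, rose by 2.02 and 1.32, and the co-chaperone Bag3 rose by 0.96 (61.9 and 65.5 to 123 and 120 CPM). The constitutive Hspa8 fell from 2256 and 2231 to 1793 and 1759 CPM (log2 -0.30, SE 0.03, edgeR adjusted p = 1.31e-07), and Hspb1 was lower by 0.54, a call lost without saline 2 (0.0719), mLJZD 1 (0.133) and mLJZD 2 (0.23). In all, 8 of 19 were higher and 5 lower (1 lower without mLJZD 1).

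Inflammatory mediators rose in part. Of 28 tested, 17 were higher and 4 lower, with 8 higher and 1 lower both without mLJZD 1 and without mLJZD 2. Il11, a cytokine of the IL-6 family, went from 16.8 and 17.1 to 45.9 and 41.5 CPM (log2 1.40, SE 0.09, edgeR adjusted p = 2.25e-09). The neutrophil chemokine Cxcl3 rose by 2.45 from under 1 CPM, and Ptgs2, cyclooxygenase 2, by 0.95 (103 and 99.7 to 187 and 196 CPM). Il6 and Tnf did not pass (adjusted p = 0.541 and 0.107) and were near or under 3 CPM. Among the 4 that fell was Ccl2, a monocyte chemokine (log2 -0.38). In the interferon-response list 16.7% were higher and 25% lower, against 15.4% and 16.0% over all genes tested. Interferon-response genes showed 6 higher and 9 lower of 36 (2 and none without mLJZD 1, 5 and 3 without mLJZD 2), with Rsad2 up by 0.71.

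Clock genes moved in both directions. The molecular clock runs on a loop in which CLOCK and ARNTL (also called BMAL1) drive the Per, Cry and Nr1d genes and the PAR factors Dbp, Tef and Hlf, and the Nr1d proteins and NFIL3 act on the other arm. Of 18 tested, 9 were lower and 5 higher (6 and 3 without mLJZD 1), and Hlf, which fell, reached the level of the low-count filter in both libraries only under saline. Dbp stood at 93.2 and 96.5 CPM under saline and 21.3 and 18.9 CPM under mLJZD (log2 -2.20, SE 0.07, edgeR adjusted p = 1.17e-13). Per2 fell by 1.74, Tef by 1.25, Nr1d2 by 1.04 and Nr1d1 by 0.91. All had no overlap between groups, as had 9941 of the 15417 genes tested. On the other side Nfil3, the repressor that opposes Dbp, rose from 20.3 and 17.3 to 51.7 and 46.3 CPM (log2 1.42, SE 0.09, adjusted p = 2.86e-09), and Arntl from 29.0 and 22.7 to 57.0 and 56.5 CPM (log2 1.17, SE 0.09). Arntl lost its call without mLJZD 1 (0.0535). Per1 rose by 0.62, opposite to Per2. Cry1 and Cry2 did not pass (log2 -0.06 and -0.03). The hour at which each group was sampled is missing from the labels, and hour and treatment cannot be told apart.

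Ribosomal protein genes rose slightly, and ribosome assembly genes did not follow. Of 25 selected cytosolic ribosomal proteins 21 were higher and none lower, with a median log2 change of 0.32. Rps6 went from 1174 and 1193 to 1791 and 1723 CPM (log2 0.60, SE 0.03, edgeR adjusted p = 1.89e-10). These ribosomal protein genes also differed within groups more than all genes did. Their mean chi-square per gene was 9.33 within saline and 20.6 within mLJZD, against 341.3 to 603 between groups. The translation factor Eef1a1 had the largest gain in CPM of all genes, from 12470 and 12630 to 14080 and 13880 CPM, a log2 change of only 0.19. Of 28 MYC targets and ribosome biogenesis genes 3, Myc among them (log2 0.42), were higher and 10 lower (2 lower without mLJZD 1 and 3 without mLJZD 2). The 10.7% higher was below the 15.4% over all genes tested, and the 35.7% lower was above the 16.0%. Gene length moved with the changes, since genes with transcripts under 1000 bases had a median log2 change of 0.0905 and those over 8000 bases of -0.0804. With the trend in length and GC content removed, 21 ribosomal protein genes were still higher.

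Mitochondrially encoded genes were lower in 9 of 13 cases and higher in none. The cytochrome b gene mt-Cytb fell from 3456 and 3279 to 2636 and 2340 CPM (log2 -0.40, SE 0.04, edgeR adjusted p = 8.73e-07). These genes differed strongly within the groups too, and 6 were lower without mLJZD 1, 3 without mLJZD 2, 4 with DESeq2 and 0 with all 8 libraries in 1 fit. Of 31 nuclear genes for the respiratory complexes 5 were higher and 2 lower (none without mLJZD 1 and 1 higher without mLJZD 2). The 16.1% higher was near the 15.4% over all genes tested, and the 6.45% lower was below the 16.0%.

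Among growth factors and receptors 9 of 31 were higher and 2 lower (6 and 2 without mLJZD 1), with a median log2 change of 0.01. With all 4 libraries 29% were higher and 6.45% lower, against 15.4% and 16.0% over all genes tested. The largest rises were those of 3 EGF receptor ligands. Areg, amphiregulin, went from 6.30 and 5.76 to 15.8 and 20.3 CPM (log2 1.61, SE 0.15, edgeR adjusted p = 2.53e-07), Ereg, epiregulin, rose by 0.94 and Btc, betacellulin, by 0.90. The ligands Egf and Tgfa did not pass (log2 -0.47 and -0.16), nor did the receptors Egfr, Erbb2 and Erbb3 (log2 -0.18, 0.01 and 0.31). Dkk2, a secreted Wnt modulator, rose from 29.0 and 27.0 to 137 and 134 CPM (log2 2.31, SE 0.06, adjusted p = 2.78e-15), while the control cultures held 2.43 and 3.83 CPM.

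Matrix genes moved in several directions. Of 22 matrix proteases and inhibitors 15 were higher and 1, Mmp9, lower (8 and none without mLJZD 1; Mmp9 has adjusted p = 0.0847 without mLJZD 2). Mmp12, a macrophage elastase, went from 34.5 and 31.1 to 83.3 and 76.3 CPM (log2 1.32, SE 0.07, edgeR adjusted p = 1.49e-10), and Adam8 and the urokinase receptor Plaur rose by 1.10 and 0.73. The fibrillar collagen Col1a1 rose by 0.63, and the basement-membrane collagens Col4a1 and Col4a2 fell by 0.32 and 0.29. Fn1, fibronectin, fell by 0.17 from 5011 and 5077 to 4361 and 4400 CPM, and lost its call when the trend in length and GC content was removed.

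Single genes of coagulation and of epithelia were among the deepest falls outside muscle. F5, coagulation factor V, went from 14.8 and 15 to 0.982 and 0.964 CPM (log2 -3.89, SE 0.20, edgeR adjusted p = 1.19e-10), and F3, tissue factor, from 28.6 and 27.4 to 8.35 and 8.01 CPM. In the list that holds both, 24% were lower, against 16.0% over all genes tested. No member of the 25 complement and coagulation genes tested was higher, and 6 were lower (3 without mLJZD 1 and 3 without mLJZD 2). Epithelial keratins and junction genes moved both ways, with 3 of 13 higher and 5 lower (none and 2 without mLJZD 1, 1 and 3 without mLJZD 2). Dsc2, a desmosomal cadherin, rose by 0.72, a call lost without mLJZD 1 (0.149) and mLJZD 2 (0.14). Of the tested keratin and junction genes 23.1% were higher and 38.5% lower, against 15.4% and 16.0% over all genes tested. Krt18, a keratin of simple epithelia, fell from 16.6 and 15.8 to 1.86 and 2.23 CPM (log2 -2.96, SE 0.17, adjusted p = 5.91e-10), with 39.0 and 30.9 CPM in the control cultures. Myh14, a nonmuscle myosin of epithelia, fell by 3.23 and stood at 44.7 and 45.3 CPM in those cultures. Slpi, a secreted protease inhibitor of mucosal surfaces, rose from 2.18 and 2.22 to 43.7 and 37.0 CPM (log2 4.22, SE 0.15, adjusted p = 4.48e-13). Syt1, a calcium sensor of exocytosis, and Nrcam, a neuronal adhesion molecule, rose by 3.51 and 2.62.

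**Figure D4:**
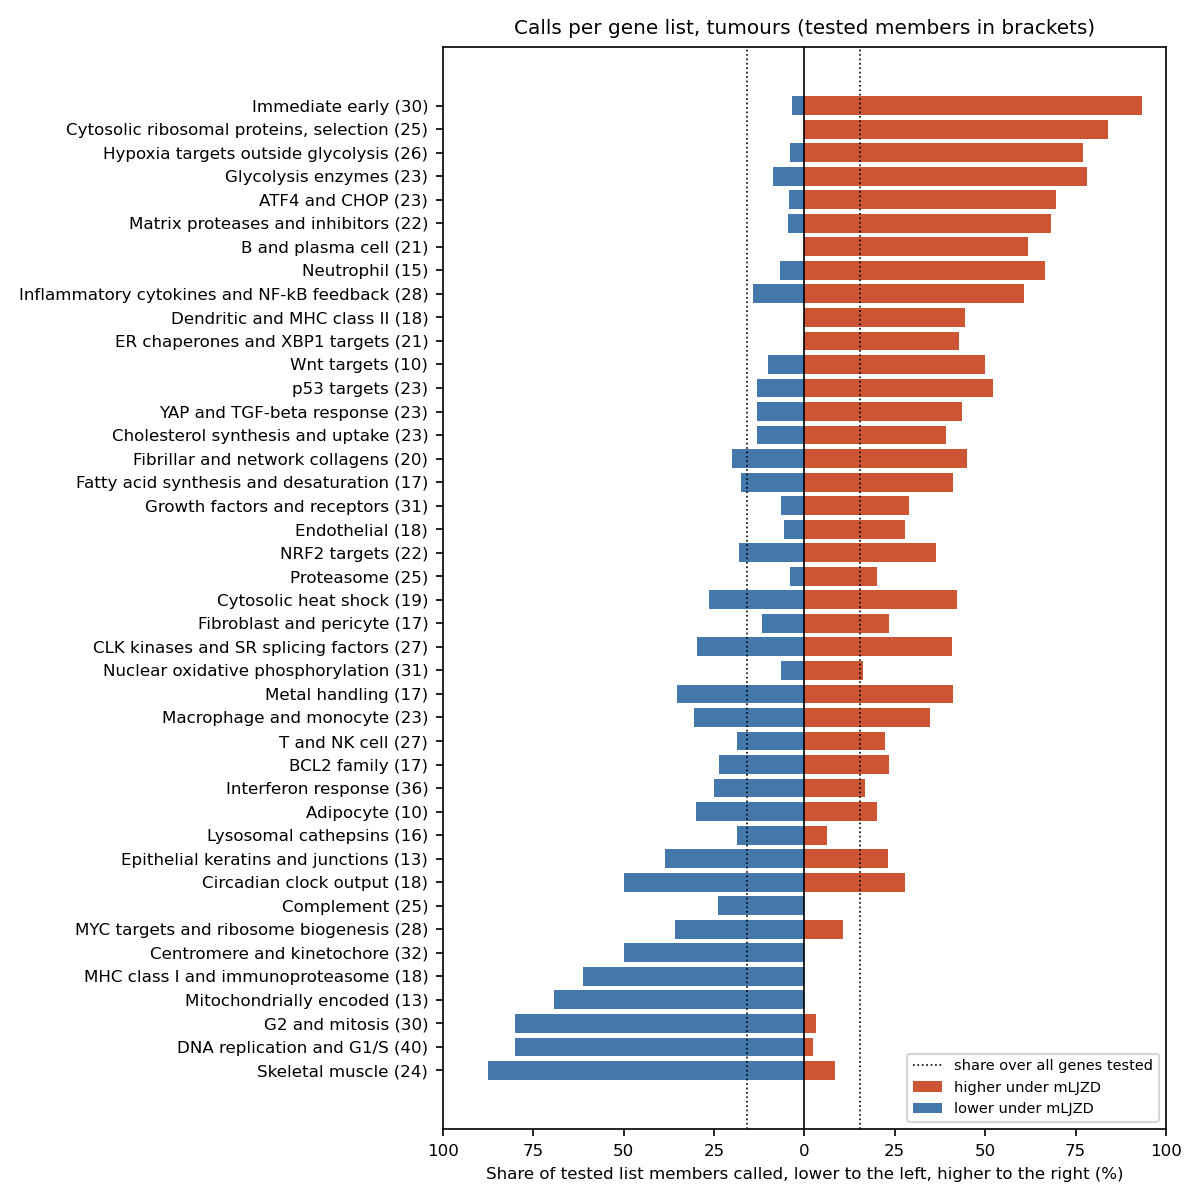
Share of the tested members of each list called higher (red, to the right) or lower (blue, to the left) under mLJZD, in %, for lists with at least 10 tested members. Dotted lines give the shares over all genes tested, 15.4% higher and 16.0% lower; immediate early genes (28 of 30 higher) and skeletal muscle genes (21 of 24 lower) stand at the ends.

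A division by culture level used no tumour library. Of the genes tested, 11374 were expressed in both control cultures at 1 CPM or more and held 96.3% to 96.7% of the counts of each tumour library, and 1836 were under 0.1 CPM in both and held 1.86% to 2.04%. Of the expressed genes 34.2% were called (1925 higher, 1961 lower), and 105 of the higher and 90 of the lower reached 2-fold. Of the absent genes 30.4% were called (286 higher, 273 lower), and 169 of the higher and 179 of the lower reached 2-fold. Without mLJZD 1 the calls were 859 among expressed and 155 among absent genes, and without mLJZD 2 they were 1596 and 244. The absent class, which holds all 78 V segments tested, 15 of 21 B and plasma cell genes and 15 of 24 skeletal muscle genes, held many of the 2-fold calls in a small share of the counts. Of the other muscle genes, 8 lay between these levels and 1, Mylpf, was in the expressed class. Among the higher calls of the absent class, 62 were V segments that reached the filter's level in both libraries only under mLJZD. Its counts of calls are thus in part set by the filter. The middle 80% of log2 changes ran from -1.23 to 1.11 in the absent class and from -0.34 to 0.35 in the expressed class. In the class between these levels, with 1.34% to 1.55% of the counts, it ran from -0.93 to 0.75. The part that low counts had in these ranges was not tested.

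**Figure D5:**
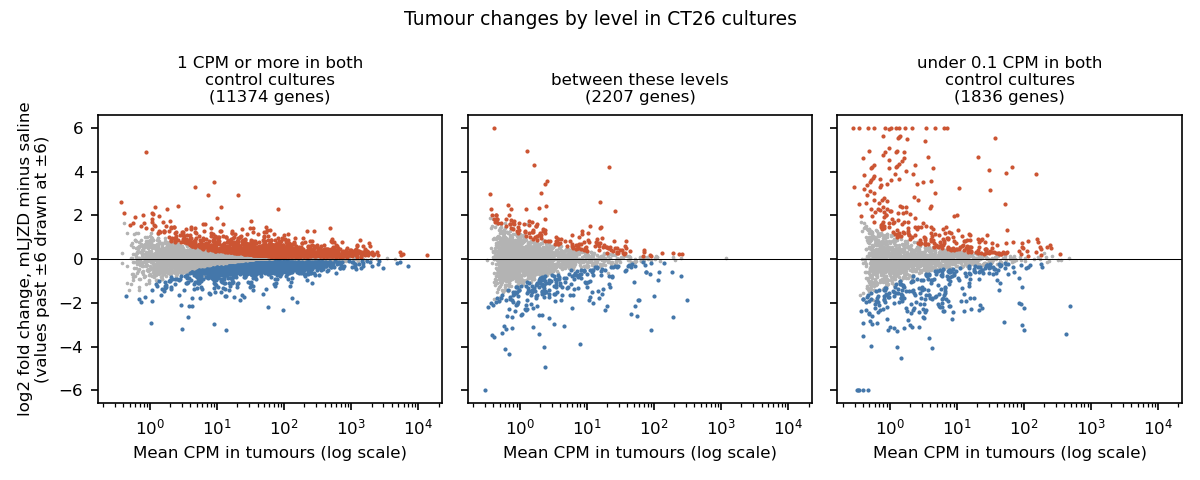
Log2 fold change, mLJZD minus saline, against mean CPM in the tumours (log scale) for genes in 3 classes by level in the control cultures. Each point is 1 gene, red where called higher, blue where called lower and grey where not called. The 1836 genes absent from cultures show the wider spread of called changes, and the 11374 expressed genes the narrower; values past 6 in size are drawn at 6.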

How the data were processed

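RNA-seq libraries of CT26 tumours, 2 a group, were analysed, with 2 control cultures used to class genes. Total RNA libraries were made with the VAHTS Universal V10 kit, per the labels' protocols. The authors deposited raw counts per gene. The submitters' processing notes list featureCounts 2.0.3, HISAT2 2.2.1, SAMtools 1.14, FastQC 0.12.1 and Trim Galore, and the build was GRCm39. Strand setting, annotation release and handling of multi-mapped reads are not stated in the labels or notes, so overlapping genes and near-identical copies may share reads. GENCODE M21 supplied symbols, matched on the identifier (52029 of 56953 identifiers).

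The test on counts was that of edgeR 4.0.16 (R 4.3.3; TMM, filterByExpr, quasi-likelihood F test, two-sided, Benjamini-Hochberg over 15417 genes, called under 0.05). SE is the log2 fold change over the square root of F. An exact permutation test cannot pass 0.05 with 2 samples a group. On simulated data made for this comparison (15163 genes) 80.6% of 1.5-fold, 86.6% of 2-fold and all of 4-fold changes were recovered, with 1.66% false calls. The genes changed numbered 67, 67 and 66. Every simulated gene was given the same spread beyond counting error (coefficient of variation 0.0497), taken from within the groups. Spread differs between genes in the real libraries, so these shares do not carry over to them. Alternatives were DESeq2 1.42.0, other scalings, filters and blocks, and leaving out each library.

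Groups, gene lists and rules were chosen with earlier results of these data known. Genes named are Cenpm and Chek1, the 12 largest log2 changes per direction (no overlap, 10 CPM or more in the higher group, no V segments), the 8 largest CPM differences per direction, and up to 3 called members a list. Further members of the lists are named for their roles. Lists are described by counts, with no set test. Members that reached the filter's level (10 counts at the median library size, in both libraries) in 1 group only were counted. Promoters are from RefSeq, build GRCm38.p6.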

Additional observations from a re-analysis of the deposited data

How the results depend on the processing

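Leaving out 1 library moved the number of calls between 1087 and 3536, of higher genes between 552 and 1754, of lower genes between 535 and 1795 and of 2-fold calls between 275 and 672. Calls among genes expressed in cultures ran from 859 to 2796 and among absent genes from 155 to 431, the lowest each time without mLJZD 1. DESeq2 called 3287 genes, 1640 of them lower. A test against a 1.5-fold change called 565 genes, and 772 calls reached 2-fold. An unadjusted p under 0.05 was reached by 6235. Scaling by library totals alone moved the median log2 change of all genes from 0.00092 to -0.0315. It moved the share of higher genes among calls from 49.0% to 41.4%, and removing the length and GC trend moved that share to 54.8%. The same-numbered libraries did not deviate together (correlation -0.106). From 2 libraries a group this correlation cannot show whether the replicate numbers mark a pairing. With the replicate block 4461 genes were called. Crossing the numbers, an alternative chosen after seeing the data, gave 5411. With all 8 libraries in 1 fit 3410 genes were called. Of 164 genes named by rule none changed sign in any alternative, and those that lost their call numbered 59 without mLJZD 1, 40 without mLJZD 2, 16 without saline 1, 14 without saline 2, 15 with DESeq2 and 19 with all 8 libraries. With 2 libraries a group, changes under 1.5-fold rest on small spreads, and depth limits genes under about 1 CPM.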

Other observations

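A few lists not described above held smaller changes. Of 23 p53 targets 12 were higher and 3 lower (6 higher without mLJZD 1 and 7 without mLJZD 2). The 52.2% higher was above the 15.4% over all genes tested, and the 13% lower was near the 16.0%. The lower calls were lost without mLJZD 1 and also without mLJZD 2. Cdkn1a, the p21 cell-cycle inhibitor, went from 192 and 201 to 302 and 278 CPM (log2 0.59, SE 0.06, edgeR adjusted p = 4.38e-07). Plk3, a stress-responsive kinase, rose by 1.22. In the BCL2 family list 23.5% were higher and 23.5% lower, against 15.4% and 16.0% over all genes tested. Of 17 BCL2 family genes 4 were higher and 4 lower, against 1 and none without mLJZD 1.

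Endothelial genes had 5 of 18 higher and 1 lower (3 higher without mLJZD 1). The shares called with all 4 libraries, 27.8% higher and 5.56% lower, stood against 15.4% and 16.0% over all genes tested. Pecam1, a pan-endothelial adhesion molecule, did not pass (log2 0.11, edgeR adjusted p = 0.155). In the proteasome list 20% were higher and 4% lower, against 15.4% and 16.0% over all genes tested. Proteasome genes had 5 of 25 higher and 1 lower, and none was called without mLJZD 1. Among splicing regulators of the CLK and SR families 11 of 27 were higher and 8 lower (4 and 1 without mLJZD 1, 2 and 3 without mLJZD 2). Of these splicing regulators 40.7% were higher and 29.6% lower, against 15.4% and 16.0% over all genes tested. Rsrp1, an SR-related nuclear gene, rose from 169 and 155 to 373 and 404 CPM (log2 1.29, SE 0.06, edgeR adjusted p = 1.32e-11).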
